A study of Sus scrofa with 37 samples.

Results

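Expression of 7 genes for helper proteins of the acinar secretory pathway was followed through the pancreas and islets of pigs. They are GP2, SYCN, SPINK1, SERPINI2, RNASE1, PDIA2 and TFF2. The genes were chosen by symbol, and a gene counted as a member where its Ensembl pig identifier mapped to one of these symbols. All 7 were found, among 25880 gene identifiers in the tables of read counts.

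Acinar cells package digestive proenzymes into zymogen granules and release them into the ducts. The granule also holds proteins with supporting tasks, among them membrane and matrix proteins of the granule and inhibitors that keep trypsin in check, and the folding of its cargo depends on chaperones of the endoplasmic reticulum. GP2 is the main glycoprotein of the granule membrane, held there by a lipid anchor, and SYCN (syncollin) lines the luminal face of that membrane. SPINK1 is the secreted trypsin inhibitor of pancreatic juice, and SERPINI2 (pancpin) belongs to the serpin family of protease inhibitors. RNASE1 is the secreted pancreatic ribonuclease, PDIA2 is a protein disulfide isomerase characteristic of pancreas, and TFF2 is the trefoil peptide first isolated from pig pancreas as pancreatic spasmolytic polypeptide.

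The study compared pigs by islet density, a label of High or Low carried by each sample, and the labels do not say how it was measured. Pancreas samples were 50 mg of tissue from the duodenal lobe, taken at retrieval, and islet samples were purified and then cultured afloat for 7 days. Counts were at hand for 17 pancreas libraries, 8 High and 9 Low, and 18 islet libraries, 8 High, 9 Low and 1 (animal 12AS51) whose label reads N/A. For 16 animals there were counts of both tissues, and in 4 of them (12FS135, 12FS161, 15LS26 and 16IS5) the label of the pancreas differs from that of the islets. Breed, age and sex are not given in the labels used here. Within a group the replicates are libraries of different animals, and p-values rest on the spread between them. The main tests across tissues took the 2 libraries of an animal as independent, and the animal entered as a block in alternatives only.

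The islet libraries held 3237653 to 6702589 counts and the High pancreas libraries 1855075 to 3922006. Among the Low pancreas libraries the counts were 2234639 in replicate 2 (12FS161), 1884982 in replicate 9 (15LS30) and 265000 to 536014 in the remaining 7. The term shallow refers to these 7. They comprise the pancreas of 12FS135 and of all 6 animals whose code begins with 14, each of which was labelled Low. Levels are given as CPM, the counts a gene would have in a library of 1000000. A level of 3 counts, used as a floor, came to 5.60 to 11.3 CPM in a shallow library and to at most 1.62 CPM elsewhere. Transcript lengths were not at hand, so no level is compared between genes. The tissue labels were checked against marker lists. All 15 tested endocrine genes were higher in islets, and all 11 tested digestive enzymes were lower there. The islets of 12AS51 stood apart, with a summed endocrine level of 8449 CPM against a median of 72906 CPM over the 18 islet libraries. This was not particular to endocrine genes. The same library had 652 CPM against a median of 8246 CPM for genes of secretory folding and export, and 40.6 against 695 CPM for duct genes.

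All 7 genes were far lower in cultured islets than in pancreas. The background to this count is that 31.5% of 12339 tested genes were called lower and 31.1% higher, a call being a Benjamini-Hochberg adjusted p under 0.05 in edgeR's quasi-likelihood test. Within the islets only GP2 passed the filter on low counts, in the fit of the density labels. The fit of tissues asks for more libraries above its limit, more than GP2 had in islets. All 7 genes thus entered it through the pancreas libraries alone and had to differ. The values that follow therefore describe the size of the difference. In bulk samples such as these, fewer cells of a type and less RNA per cell cannot be told apart.

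GP2 (ENSSSCG00000007861), the granule membrane glycoprotein, ranged from 833 to 16863 CPM over the 17 pancreas libraries, with a median of 6757 CPM. In the 18 islet libraries it ranged from 0.298 to 37.0 CPM, with a median of 3.65 CPM. The tissues did not overlap, though how many of all genes separated them in this way was not counted. The log2 fold change of islets against pancreas was −10.42 (SE 0.74). SYCN (ENSSSCG00000021959), the syncollin gene, ranged from 86.8 to 2170 CPM in pancreas and had 0 counts in 13 of the 18 islet libraries. Its highest islet level was 2.11 CPM, and its log2 fold change was −11.94 (SE 0.69).

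The trypsin inhibitor SPINK1 (ENSSSCG00000034511) had the smallest tissue difference of the 7 genes, a log2 fold change of −8.07 (SE 0.56). Its level was 23.6 to 1175 CPM in pancreas and 0 to 9.87 CPM in islets. The serpin SERPINI2 (ENSSSCG00000011737) ranged from 56.0 to 2368 CPM in pancreas, and in islets from 0 in 9 libraries to 2.93 CPM. It differed by −11.27 (SE 0.73) on the log2 scale.

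RNASE1 (ENSSSCG00000031649), the pancreatic ribonuclease, stood at 102 to 3607 CPM in pancreas and at most 2.18 CPM in islets, a log2 fold change of −11.54 (SE 0.69). PDIA2 (ENSSSCG00000007983), the disulfide isomerase, stood at 172 to 1284 CPM in pancreas and had 0 counts in 11 of 18 islet libraries, with a highest level of 1.21 CPM. Its log2 fold change was −11.92 (SE 0.50). TFF2 (ENSSSCG00000024320), the trefoil peptide gene, stood at 108 to 1677 CPM in pancreas and at 0 to 7.08 CPM in islets, and its log2 fold change was −10.18 (SE 0.69). GP2 was called lower in each of 35 fits that left out 1 library. It too entered this comparison through pancreas, so these calls are no test.

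**Figure D1:**
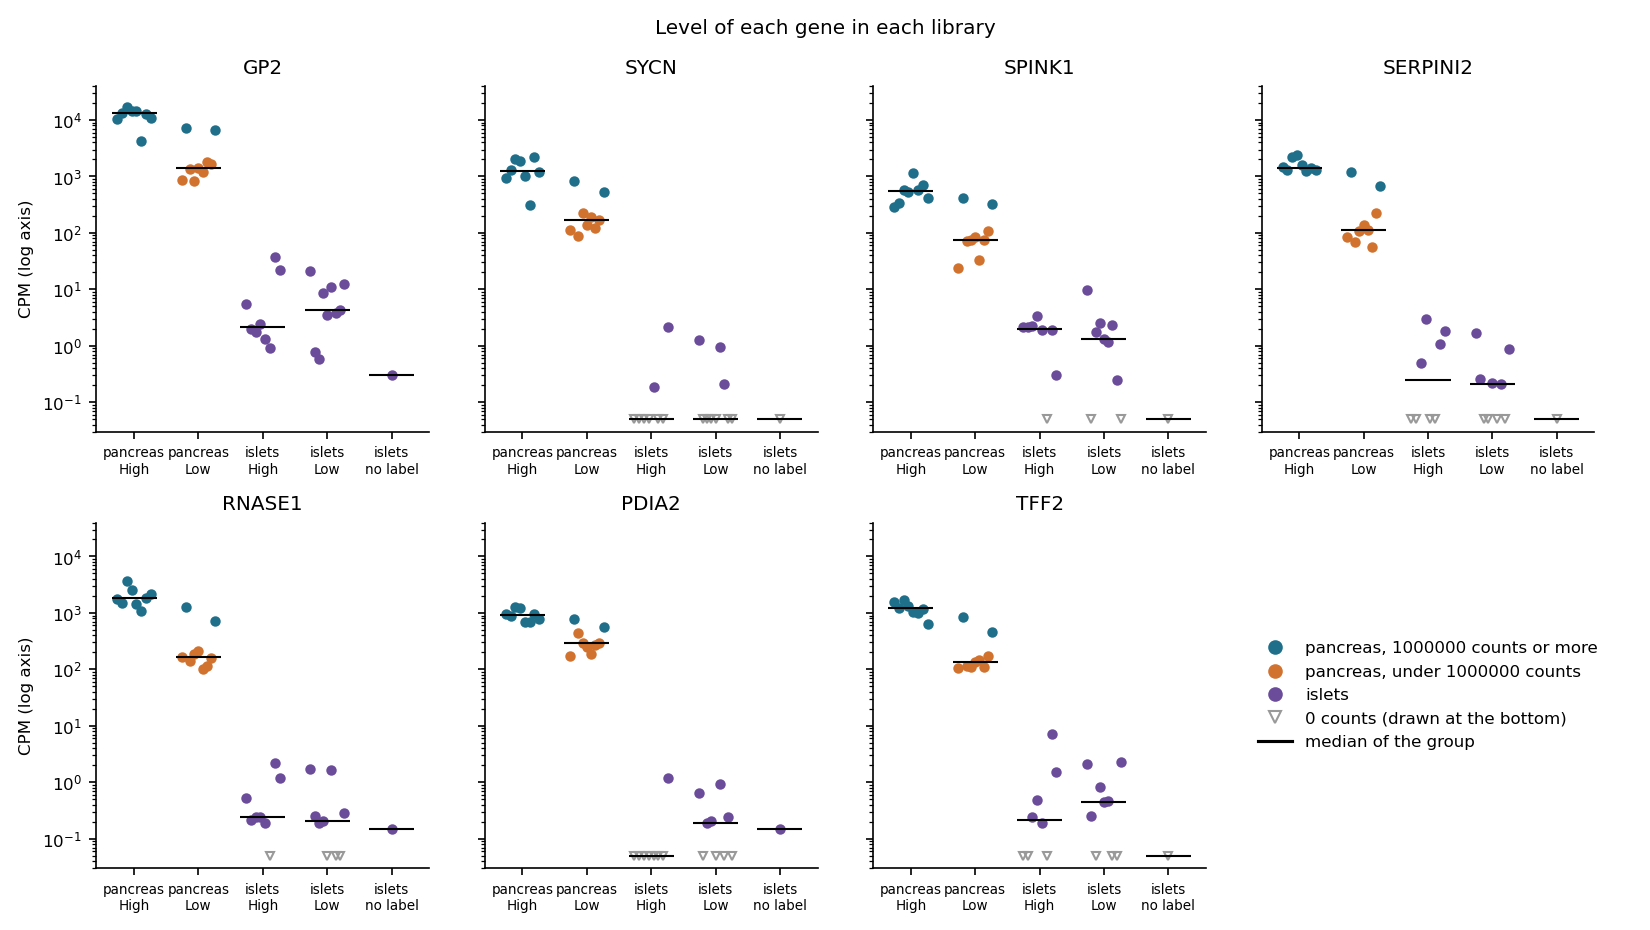
Level of each of the 7 genes in every library, in CPM on a log axis, by tissue and density label; points are libraries, lines are medians and open triangles mark 0 counts. Pancreas levels lie above every islet level for each gene, and the 7 shallow Low pancreas libraries (orange) lie below the other 10.

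Their tissue difference was of the size seen for the digestive enzymes, whose 11 tested genes had a median log2 fold change of −11.91 against −11.27 for the 7 genes and −0.01 for all genes tested. Other acinar lists spread more widely. Of 7 acinar transcription factor genes tested, 6 were lower in islets, with a median of −4.10, and RBPJL, a subunit of the acinar PTF1 transcription complex, differed most (−10.54, SE 0.43). In the list of granule trafficking genes, 3 of 11 were higher and 3 lower, among them the small GTPase gene RAB27B (−4.90, SE 0.37). Of 18 genes for folding and export in the secretory pathway, 7 were higher and 4 lower in islets. P4HB, the gene of the widely expressed protein disulfide isomerase, differed by −1.49 (SE 0.26), where PDIA2 differed by −11.92. Lists of other cells also moved between the tissues, with 7 of 11 duct genes, 8 of 10 endothelial genes and 5 of 6 macrophage and leukocyte genes lower in islets, and 3, 0 and 0 higher.

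Few counts of the 7 genes remained in islets, 878 in all over 18 libraries, and they were not spread in proportion to the pancreas levels. GP2 had 557 of them and reached 3 counts in 17 libraries, while SPINK1 had 149 and reached 3 counts in 12 libraries. TFF2 had 62 counts, SERPINI2 and RNASE1 had 38 each, SYCN 19 and PDIA2 15, and these 5 genes reached 3 counts in at most 5 libraries each. SPINK1 made up 2.97% of the pooled counts of the 7 genes in pancreas, and in a pancreas library 1.53% to 6.34%, while its share in a single islet library ran from 0% to 64.3%. Over pooled counts GP2 made up 63.4% in islets and 61.5% in pancreas, and PDIA2 made up 1.71% and 4.85%.

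**Figure D2:**
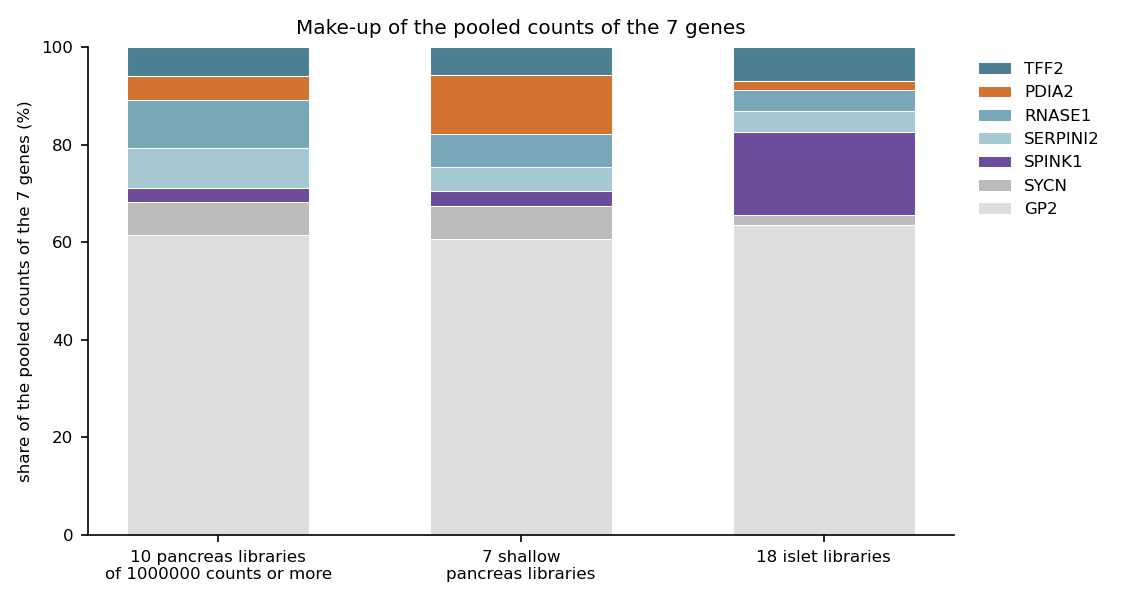
Share of the pooled counts of the 7 genes held by each gene, as stacked bars from 0 to 100%, in the 10 pancreas libraries of 1000000 counts or more, the 7 shallow pancreas libraries and the 18 islet libraries. SPINK1 (purple) holds 149 of 878 counts in islets and 2.97% in all pancreas libraries, and PDIA2 (orange) holds 12.1% in the shallow pancreas libraries against 4.78% in the other 10.

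The digestive enzymes had 4951 counts over the 18 islet libraries, of which 69.9% lay in the islets of 15LS29 (High 7), 12FS162 (Low 1) and 16CS60 (High 8). These 3 libraries also held 55.3% of the GP2 counts (136, 100 and 72), 66.1% of the TFF2 counts and 68.4% of the SYCN counts. They held only 36.2% of the SPINK1 counts. SPINK1 had 46 counts in the islets of 12FS162, but 7 and 1 in those of 15LS29 and 16CS60. In the other 15 libraries it had 95 counts and reached 3 counts in 10 of them. Per 1000 enzyme counts, SPINK1 stood at 15.6 in the 3 libraries pooled and at 63.8 in the other 15. The other genes were also lower in the 3 libraries. GP2 stood at 89.0 and 167, SERPINI2 at 5.20 and 13.4, RNASE1 at 5.78 and 12.1, and PDIA2 at 2.02 and 5.37. TFF2 (11.8 and 14.1) and SYCN (3.76 and 4.03) differed least. The 3 libraries were picked for their high enzyme counts, the denominator here, so a lower ratio in them is no test.

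**Figure D3:**
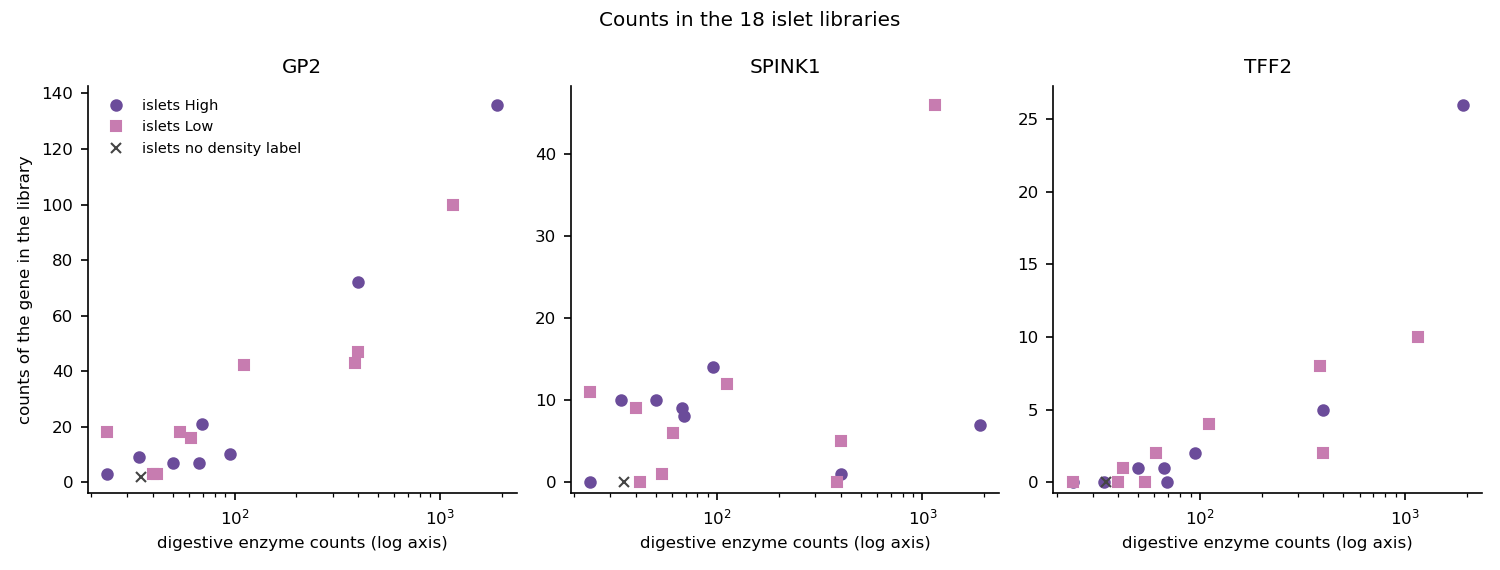
Counts of GP2, SPINK1 and TFF2 in each of the 18 islet libraries against the summed digestive enzyme counts of the same library (log axis); circles are High, squares Low and the cross the library with no density label. GP2 and TFF2 are highest where enzyme counts are highest, and SPINK1 has up to 14 counts in libraries with few enzyme counts, and 7 in the library with the most.

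Relative to the digestive enzymes, 2 of the 7 genes were higher in islets than in pancreas. For this comparison the summed enzyme counts of each library took the place of its total, and it was added after the data had been seen. On that scale 99.8% of the tested genes were called higher, with a median of 12.20, the enzymes in the denominator being far lower in islets. SPINK1 was higher by 4.85 (SE 0.76, adjusted p 3.53e-09) and GP2 by 1.51 (SE 0.61, adjusted p 0.0145). The 95% intervals of SYCN (−2.20 to 0.80), SERPINI2 (−0.37 to 2.36), RNASE1 (−1.05 to 1.60), PDIA2 (−2.57 to 0.52) and TFF2 (−0.35 to 2.22) spanned 0, and these genes were not called. Without the islets of 12FS162, where SPINK1 was highest, its value was 4.90 and that of GP2 1.56. With the animal as a block they were 3.97 and 1.34, and both calls held.

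In pancreas all 7 genes were higher in libraries labelled High than in those labelled Low. Of 10634 tested genes, 18.8% were called higher and 21.5% lower. The fitted differences ran from 2.58-fold for PDIA2 to 6.36-fold for RNASE1, and the median of the 7 was 2.39 on the log2 scale against 0.07 over all tested genes.

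GP2 had a lowest, median and highest level of 4227, 13062 and 16863 CPM in the 8 High libraries. In the Low libraries it stood at 7107 and 6757 CPM in replicates 2 and 9 and at 833 to 1770 CPM in the 7 shallow ones. Both deeper Low libraries lay within the High range, and the shallow libraries lay below it. The log2 fold change was 2.39 (SE 0.43, adjusted p 0.000252). SYCN followed the same layout, with 312, 1250 and 2170 CPM in the High libraries, 819 and 534 CPM in Low replicates 2 and 9, and 86.8 to 229 CPM in the shallow libraries. Its log2 fold change was 2.38 (SE 0.42, adjusted p 0.000192). For both genes the lowest High library was the pancreas of 15LS29.

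Among the inhibitors, SPINK1 had 283, 554 and 1175 CPM as lowest, median and highest High level. It stood at 413 and 326 CPM in Low replicates 2 and 9, inside the High range, and at 23.6 to 108 CPM in the shallow libraries, where 7 to 40 counts were behind each value. The log2 fold change was 2.18 (SE 0.41, adjusted p 0.000378). SERPINI2 was the member whose labels did not overlap, with 1260, 1432 and 2368 CPM in High, 1181 and 672 CPM in Low replicates 2 and 9, and 56.0 to 223 CPM in the shallow libraries. The gap between the lowest High and the highest Low library was small beside the range of either label. How many of all tested genes also had no overlap was not counted. Its log2 fold change was 2.64 (SE 0.47, adjusted p 0.000225).

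RNASE1 had 1093, 1812 and 3607 CPM in High, 1297 and 731 CPM in Low replicates 2 and 9 and 102 to 216 CPM in the shallow libraries. On the log2 scale High exceeded Low by 2.67 (SE 0.44, adjusted p 0.000111), and Low replicate 2 lay within the High range. TFF2 had 638, 1209 and 1677 CPM in High, 851 and 451 CPM in Low replicates 2 and 9 and 108 to 174 CPM in the shallow libraries. Its log2 fold change was 2.41 (SE 0.39, adjusted p 9.71e-05). PDIA2 had the smallest difference, with 680, 920 and 1284 CPM in High, 791 and 572 CPM in Low replicates 2 and 9 and 172 to 449 CPM in the shallow libraries. Its log2 fold change was 1.37 (SE 0.30, adjusted p 0.00138).

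The calls were lost without the shallow libraries. Each gene was called in all 17 fits that left out 1 library, but none of the 7 was called without the 7 shallow libraries, where 8 High stood against 2 Low. At an unadjusted p under 0.05 that edgeR fit had 7 of the 7 genes and 1222 genes in all, and it called 0 genes after adjustment. The log2 fold changes were then 0.93 (SE 0.35) for PDIA2 to 1.44 (SE 0.56) for SYCN, with a median of 1.30. With the first 2 digits of the animal code as a covariate only TFF2 was called (1.84, SE 0.50, adjusted p 0.0392), and the median was 1.80. That fit called 368 of 10634 tested genes, and 7 of the 7 genes had an unadjusted p under 0.05. Among animals whose code begins with 12, 3 High and 2 Low, the median was 2.04 and none was called or had an unadjusted p under 0.05 (0 genes called in all, 1819 at an unadjusted p under 0.05). When each pancreas library was given the label of the same animal's islets, the median was 1.28 and none was called, with 2 of the 7 at an unadjusted p under 0.05 (0 and 2311 of all genes). Because the 6 animals with a code beginning with 14 were all Low and all shallow, density label, depth and code cannot be told apart for them.

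**Figure D4:**
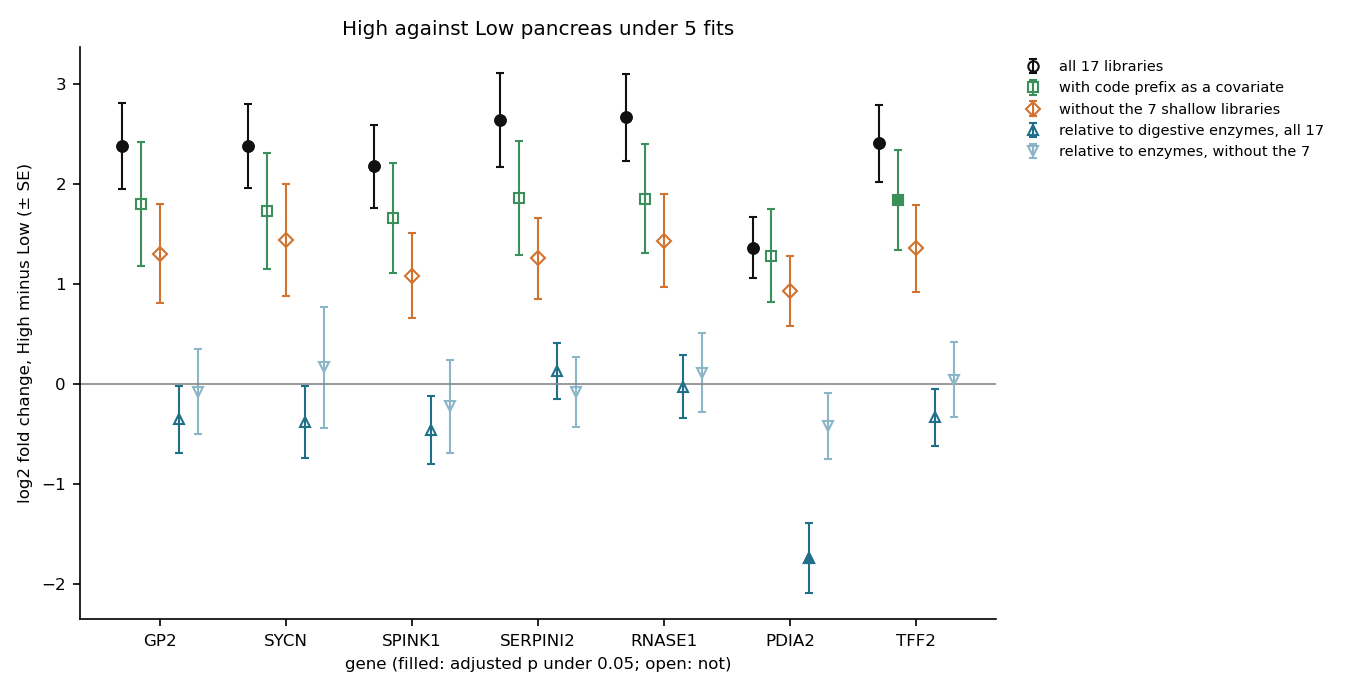
Log2 fold change (± SE) of each gene in High against Low pancreas under 5 fits; filled symbols have an adjusted p under 0.05. All 7 are filled with all 17 libraries, only TFF2 with the code prefix as a covariate and none without the 7 shallow libraries, and relative to the digestive enzymes only PDIA2 is filled, below 0.

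Levels in other gene lists differed along with them. Of all 10634 tested genes 18.8% were called higher and 21.5% lower, the shares to set beside the counts below. Of 21 listed symbols of digestive enzymes 12 matched, the amylase genes being among those that did not, and CTRL had 0 counts throughout. Shares and ratios of the enzymes cover the matched genes only. The 12 matched digestive enzymes held 16.8% to 27.5% of counts in High pancreas, 12.2% and 10.1% in Low replicates 2 and 9, and 1.16% to 3.15% in the shallow libraries. Their summed level on the log2 CPM scale was 3.09 higher in High (exact permutation test, two-sided, p = 0.000165, 24310 assignments). This test and the calls below include the shallow libraries. Without them 0 of 13217 tested genes were called, and the test of the sum was not repeated. All 11 tested enzymes were higher in High, with a median of 2.67. Of the genes for folding and export 16 of 18 were higher (median 1.68), and of the acinar transcription factors 7 of 8 (median 1.29). In the duct cell list 6 of 11 were higher, with a summed level of 1629 to 3193 CPM in High and 364 to 2517 CPM in Low. In the macrophage and leukocyte list 4 of 8 were lower, with 44.5 to 208 CPM in High and 91.4 to 272 CPM in Low. In the endocrine list 6 of 15 were lower, with 639 to 3194 CPM in High and 334 to 14839 CPM in Low. Of 9 endothelial genes 3 were higher and 1 lower, and of 9 fibroblast and stellate genes 2 were lower. The fibroblast and stellate count is close to the share of all tested genes called lower. No gene of these 5 lists was at 0 in a whole group. Their part in the differences of the 7 genes was not tested.

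Measured against the digestive enzymes rather than against all counts, only PDIA2 among the 7 genes was called different between High and Low pancreas. On this scale 95.7% of 10634 tested genes were called lower in High, with a median of −2.88. The log2 fold changes were 0.13 (95% interval −0.42 to 0.69) for SERPINI2, −0.03 (−0.64 to 0.59) for RNASE1 and −0.33 (−0.89 to 0.22) for TFF2. They were −0.35 (−1.01 to 0.30) for GP2, −0.38 (−1.09 to 0.33) for SYCN and −0.46 (−1.13 to 0.20) for SPINK1. None of these 6 was called, and differences up to the ends of these intervals are not excluded.

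PDIA2 was lower in High by −1.74 on the log2 scale (SE 0.35, adjusted p 5.12e-05). Per 1000 enzyme counts it stood at 2.78, 4.49 and 6.75 as lowest, median and highest in the High libraries. It stood at 6.49 and 5.68 in Low replicates 2 and 9 and at 9.37 to 34.0 in the shallow libraries. Every shallow library lay above every other pancreas library, while the deeper Low libraries lay within the High range. The call held in all 17 fits that left out 1 library (−1.85 to −1.50). It was lost without the 7 shallow libraries (−0.42, SE 0.33, adjusted p 0.224), with the first 2 digits of the animal code as a covariate (−0.77, SE 0.44, adjusted p 0.105) and with other acinar products as the denominator (−0.63, SE 0.45, adjusted p 0.198). With that denominator SERPINI2 was called higher in High (1.05, SE 0.45, adjusted p 0.0305).

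**Figure D5:**
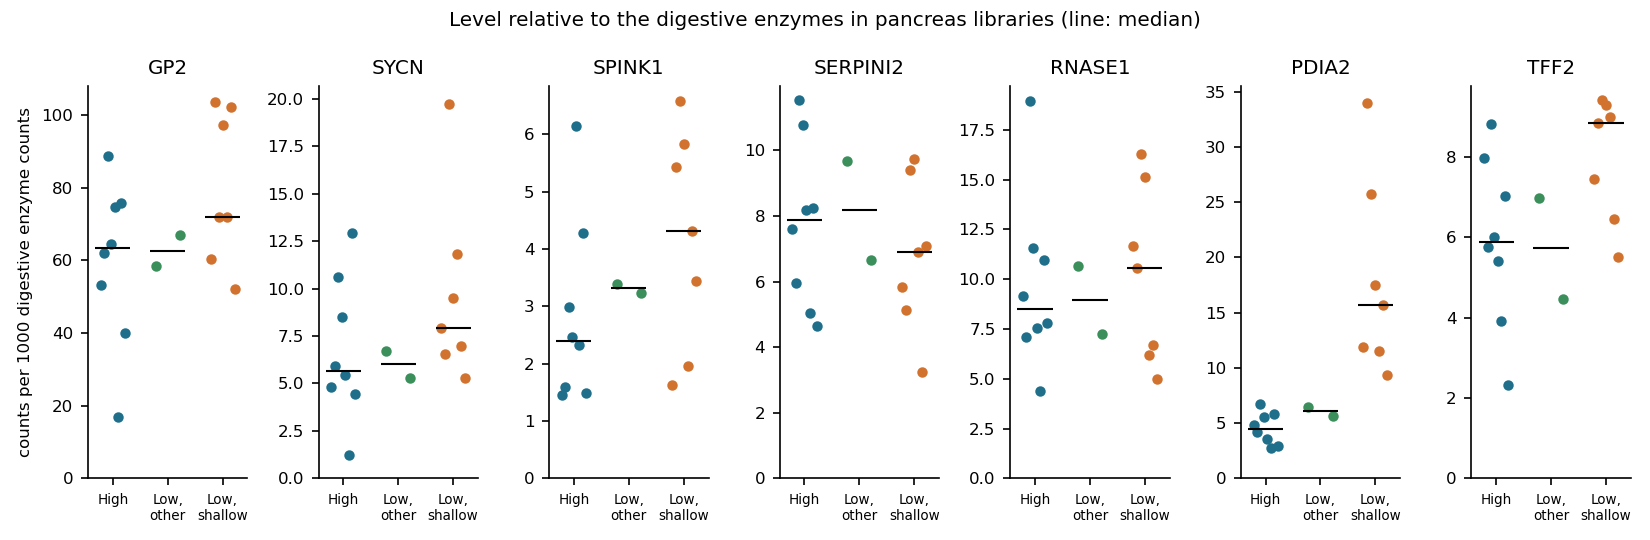
Counts of each gene per 1000 digestive enzyme counts in the 17 pancreas libraries, split into High, the other Low libraries (replicates 2 and 9) and the shallow Low libraries; points are libraries and lines medians, each panel starting at 0. The groups overlap for 6 genes, and for PDIA2 the shallow libraries (9.37 to 34.0) lie above the High libraries (2.78 to 6.75).

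PDIA2 shifted in the make-up of the 7 genes too, which restates the same counts of the same libraries. It held 12.1% of their pooled counts in the shallow set and 4.78% in the 10 deeper pancreas libraries, while GP2 held 60.6% and 61.6%. SERPINI2 held 4.93% and 8.16%, RNASE1 6.75% and 9.93%, and SYCN, SPINK1 and TFF2 moved by less than 1 percentage point. The genes for folding and export, a list to which PDIA2 does not belong, were lower in High relative to the enzymes in 12 of 18 cases, with a median of −0.80. Of all tested genes 95.7% were called lower on that scale, with a median of −2.88. Both the list and PDIA2 (−1.74) thus lay closer to the enzymes than the median gene did, and neither stood out as lower. P4HB stood at −1.48 (SE 0.30) on that scale and at 1.51 (SE 0.30) on the scale of all counts.

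In islets no difference between the density labels was detected for these genes. None of 12070 tested genes was called by edgeR, DESeq2 or limma-voom, a share of 0%, and 257, 297 and 244 had an unadjusted p under 0.05. GP2, which alone passed the filter, had a lowest, median and highest level of 0.927, 2.20 and 37.0 CPM in the 8 High islet libraries and 0.578, 4.40 and 21.4 CPM in the 9 Low ones. The labels overlapped, with 7 of the 9 Low libraries above the lowest High one. Its log2 fold change of High against Low was 0.39 (95% interval −1.12 to 1.90, adjusted p 0.999), and it changed sign to −0.57 without the islets of 15LS29. SPINK1 had 59 counts in the High and 90 in the Low islet libraries, and 46 of the latter lay in the islets of 12FS162. The other 5 genes had 4 to 35 counts in the High and 10 to 27 in the Low libraries. At these counts no difference between the labels could be detected.

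Whether the density difference itself differed between the tissues was tested with an interaction term, islets minus pancreas. Of 14337 tested genes, 17.7% were called lower on this measure. GP2, the one member with enough islet counts to pass the filter there, was called lower (−2.17, SE 0.88, adjusted p 0.0457). That call was lost with the animal as a block (−2.27, SE 1.09, adjusted p 0.0913), without the shallow libraries (−1.01, SE 1.16, adjusted p 0.762) and in other fits such as DESeq2 (adjusted p 0.0673). The other 6 genes entered through the pancreas, where they are high, so their fitted values are a description and show no difference between the tissues. These were −2.53 (SE 0.77) for SPINK1, −2.52 (SE 0.98) for RNASE1, −2.36 (SE 0.97) for PDIA2, −2.64 (SE 1.20) for SYCN, −1.78 (SE 0.99) for TFF2 and −1.70 (SE 1.16) for SERPINI2. Their islet side rests on a few counts per library, for PDIA2 on 4 counts in all High and 10 in all Low islet libraries.

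The 7 genes differed in how closely they kept to one another across the pancreas libraries. Likeness was measured as the SD of the log2 ratio of a gene to another over the 17 pancreas libraries, and it is given as a description. A factor shared by all genes of a library, such as depth, drops out of this ratio. Differences in digestive enzyme content between the libraries can remain in it, and so can counting noise at low counts. In the shallow libraries SPINK1 had 7 to 40 counts and SYCN 23 to 84. The median over the 8129 genes compared was 1.06 to 1.79, depending on the gene. The closest pair among the 7 was SERPINI2 and RNASE1, with an SD of 0.47, followed by GP2 and TFF2 with 0.50. PDIA2 was the member least like the others, with SDs of 0.78 to 1.17. Over the 10 libraries that were not shallow its SDs were 0.27 to 0.71, and it was there closest to SERPINI2.

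The genes outside the 7 that kept the most constant ratio to each were as follows. For GP2 they were an identifier with no symbol (ENSSSCG00000030698, SD 0.27), the growth factor gene EGF (0.32) and the colipase gene CLPS (0.38). For SERPINI2 and RNASE1 the closest was PLA2G1B, the pancreatic phospholipase, with SDs of 0.35 and 0.33. Next came an identifier with no symbol (ENSSSCG00000036013, 0.44 and 0.41), then the carboxypeptidase gene CPB1 for SERPINI2 (0.45) and the translocon gene SEC61A1 for RNASE1 (0.49). That identifier was also the closest to TFF2 (0.28), ahead of another with no symbol (0.36) and the ribosomal protein gene RPL28 (0.41). For SYCN they were the same identifiers (0.55 for ENSSSCG00000036013 and 0.59 for ENSSSCG00000030698) and the glycosyltransferase gene GALNT6 (0.60). For SPINK1 they were TMED3 (0.48), an identifier with no symbol (0.50) and the lipoprotein lipase gene LPL (0.52). PDIA2 had a different set, namely P4HB (0.30), ALDH18A1 of proline synthesis (0.30) and the scaffold gene IQGAP2 (0.32).

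None of the 7 genes overlaps another gene in the RefSeq annotation of Sscrofa11.1, but some lie next to related genes. RNASE1 lies next to RNASE6, another gene of the ribonuclease family. GP2 lies next to UMOD, the uromodulin gene, which stood at 1.28 to 29.1 CPM in pancreas. TFF2 lies between the trefoil genes TFF3 and TFF1, which stood at no more than 3.64 and 12.9 CPM in pancreas. SYCN lies next to NCCRP1, which was at 20.9 to 45.0 CPM in High pancreas and 3.37 to 43.4 CPM in Low pancreas.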

How the data were processed

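RNA of 37 samples was sequenced, and 35 had a column of counts. The authors deposited unscaled counts of reads per Ensembl gene, in a table per tissue. Per the submitters' processing notes, the tools were HISAT2 2.0.2, Subread, FastQC and edgeR and the build was susScr3, with no role stated. How reads were assigned to genes and strands is not given in the sources used here. With no known strand setting, reads of antisense genes cannot be told apart. The 1 count column that matched no sample was not used.

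Samples were grouped by title and density label. For 2 islet samples (11KS28 and 12AS51) the title was used although the source name reads pancreas. The animal code in the titles pairs libraries of the same animal across 16 animals. It entered only as a block in alternatives, because the main design follows the groups. Chi-square per degree of freedom was at least 3.18 in the 128 pairs of libraries within groups, so all were kept apart.

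Of the 25880 identifiers 14857 had a symbol, from a table of Ensembl identifiers. The main test was edgeR's robust quasi-likelihood test (version 4.0.16, R 4.3.3; filterByExpr, TMM), two-sided, with Benjamini-Hochberg adjustment over all tested genes and a threshold of 0.05. Fits relative to digestive enzymes took the summed counts of the matched enzymes as library size. The comparison of tissues on that scale was added after the data were seen. Printed CPM use column totals. The summed enzyme level was compared with an exact permutation test (scipy 1.17.1). DESeq2 1.42.0, limma 3.58.1, other scalings, filters, subsets and left-out libraries were alternatives, and 1 alternative with fewer enzymes in the summed counts is not reported here. The fits were tested on simulated data. The members, lists and named genes (the 7 members, for each the 3 genes of most constant ratio to it with a mean of at least 10 CPM and a pseudocount of 0.5, and the 2 largest changes in other lists) were chosen with earlier results of these data known. No sequence was printed and no promoter or protein feature analysed, for want of a sequence table.

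Depth was 265000 to 6702589 counts per library, and floors of 3 counts cover counting error only.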

Additional observations from a re-analysis of the deposited data

Results flagged for a closer look

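The level of each gene was tested for single libraries far from the rest of their group, in 28 combinations of gene and group. Of these, 5 were picked out. The cutoffs pick about 1 in 20 by chance where values spread normally. Islet groups with mostly 0 counts do not, so the 5 cannot be set against that rate. In the pancreas of 15LS29 (High replicate 6), GP2 was low at 4227 CPM and SYCN at 312 CPM, although the digestive enzymes held 25.0% of its counts. The other 5 genes of that library lay close to or within the range of the remaining High libraries. In the islets of 16CS60 (High replicate 8), SYCN was high at 2.11 CPM and PDIA2 at 1.21 CPM, resting on 7 and 4 counts, and 6 and 7 of the 8 High islet libraries had 0 counts of these genes. With 7 of 8 libraries at 0, any count of PDIA2 in the remaining library would have been picked out. In the islets of 15LS29 (High replicate 7), TFF2 was high at 7.08 CPM, and the same library held the most digestive enzyme counts (1904). Why these libraries stood apart was not tested.

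The test of the difference between the density differences of islets and pancreas passed its threshold for GP2 (−2.17 on the log2 scale), a call lost with the animal as a block and without the shallow pancreas libraries. It also did for SPINK1 (−2.53), RNASE1 (−2.52) and PDIA2 (−2.36), which have too few islet counts for these values to show a difference between the tissues. Without the shallow libraries none of the 7 genes passed.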

How the results depend on the processing

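All 7 genes kept their direction and call between islets and pancreas under every alternative run. They entered that comparison through pancreas, GP2 included, so the filter had fixed both. Tested genes called were 15012 with no filter on low counts against 7726. High against Low pancreas kept its direction for all 7. Its genes called were 4283, and 2542 with library totals, 10836 with no filter, 2828 in animals labelled alike in both tissues and 368 with the code prefix as a covariate (members called 1). They were 0, with 0 members, without the shallow libraries, with the other tissue's label, within codes beginning with 12 and with enzyme level as a covariate. With upper-quartile scaling the median of all genes was −0.11 rather than 0.07, and calls split 1467 higher to 2772 lower rather than 1998 to 2285. Relative to the enzymes, members called were 0 without the shallow libraries or with the code prefix, 2 in same-label animals (4455 genes against 10176), and 1 to 2 with 1 library left out. SPINK1 was the second there (−0.73, adjusted p 0.0404, without the pancreas of 15LS26). Signs turned without the shallow libraries for RNASE1 (0.11), SERPINI2 (−0.076), SYCN (0.17) and TFF2 (0.042), in same-label animals for RNASE1 (0.17), and with the code prefix for RNASE1 (0.0024) and SPINK1 (0.027). With other acinar products as denominator they turned for GP2 (0.42), RNASE1 (0.94), SPINK1 (0.60), SYCN (0.48) and TFF2 (0.60). RNASE1 ran from −0.24 to 0.092 with 1 library left out. In islets GP2 turned with limma-voom (−0.18), enzyme level (−0.20), code prefix (−0.88) and within codes beginning with 12 (−3.42, 5 genes and 1 member called, with 4 High against the single Low library of 12FS162, assumed to vary like the High ones), and ran from −0.57 to 0.76 with 1 library left out. For the difference between tissues, members called were 4, and 2 with RLE or upper-quartile scaling, without the islets whose source name reads pancreas or in same-label animals, 1 with library totals, 0 without the shallow libraries (61 genes against 5718), and genes called 8812 with no filter. Pairing by animal as a replicate block left 1 member in that test and changed no other call. Unless a subset is named, the cause was not tested. Low counts in islets limit every gene, GP2 least.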
